A study of Mus musculus with 12 samples.

Results

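Etv2, Tal1, Lmo2, Fli1, Erg, Sox7, Sox18, Gata2 and Runx1 are the transcription factors and cofactors that start and maintain the blood and endothelial programme of the mouse embryo. They were followed here through 4 populations sorted from differentiating mouse embryonic stem cells by heart reporters. The members are the probe sets annotated to 1 gene with one of these symbols (an older symbol of Etv2 included). They are 9 genes of the 18193 named on the array and have 18 probe sets between them. Each gene is described by its brightest probe set on average, and the other 9 probe sets are set beside it. All 9 genes passed the filter on low values.

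The cells were dissociated from day 6 embryoid bodies, cell aggregates that resemble parts of the early embryo, grown as hanging drops. All of them carried dsRed driven by a reporter of the second heart field (progenitors that build the right ventricle and the outflow vessels) and eGFP driven by an enhancer specific to cardiac cells. Flow sorting separated double-positive (R+G+), red-only (R+G-), green-only (R-G+) and double-negative (R-G-) cells. Each population was hybridised to 3 single-colour Affymetrix arrays, from experiments A, B and C, and the labels name no drug or mutation in any group. The reporters mark heart regulatory activity, so no population was sorted for a blood or endothelial surface protein, and the double-negative cells are whatever carried neither colour. The labels do not say whether the 3 experiments were separate cultures, so p-values measure the spread between these arrays, which may be technical. Values are intensities on a linear scale, and differences are on the log2(intensity + 4.10) scale, which understates the change of dim probe sets. In bulk samples such as these, fewer cells of a type and less RNA per cell cannot be told apart.

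As background, blood and endothelium arise from shared Flk1-positive mesoderm, and cardiac muscle comes from neighbouring mesoderm. Etv2 is an ETS factor that acts briefly at the top of the hierarchy and switches on the other factors. Tal1 (a basic helix-loop-helix protein that binds the E-box), the bridging protein Lmo2 and a GATA factor assemble into 1 complex on DNA. Fli1 and Erg are ETS factors that keep endothelial genes on, Sox7 and Sox18 belong to the SOXF group of vascular regulators, and Runx1 is needed for blood stem cells to emerge from endothelium.

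The promoter windows of Etv2 and Tal1 are shown because Etv2 heads the cascade and because the levels of both genes separated populations. The table of RefSeq promoters (GRCm38.p6, 250 bases before to 50 after a start site) held windows for 5 of the 9 genes: Etv2, Tal1, Gata2, Runx1 and Erg. The Etv2 window is chr7:30635803-30636102 on the minus strand, and the first Tal1 window is chr4:115056176-115056475 on the plus strand. Both are written 5′ to 3′ along the gene, with the matches found in capitals.
Etv2: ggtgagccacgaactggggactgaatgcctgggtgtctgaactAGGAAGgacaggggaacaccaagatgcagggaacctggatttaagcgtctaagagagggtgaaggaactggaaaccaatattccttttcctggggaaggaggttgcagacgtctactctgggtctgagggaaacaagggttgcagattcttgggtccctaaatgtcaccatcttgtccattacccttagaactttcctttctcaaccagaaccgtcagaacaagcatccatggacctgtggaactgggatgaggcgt
Tal1: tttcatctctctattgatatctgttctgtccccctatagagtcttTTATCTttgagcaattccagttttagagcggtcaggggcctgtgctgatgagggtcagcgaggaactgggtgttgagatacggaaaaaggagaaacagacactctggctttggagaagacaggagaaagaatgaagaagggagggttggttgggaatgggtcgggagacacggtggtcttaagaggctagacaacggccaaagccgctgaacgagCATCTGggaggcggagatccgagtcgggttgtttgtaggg
Short motifs were searched on both strands, in every window of the table as well. ETS, read as CGGAAG or AGGAAG, was found in 46.5% of all 32851 windows. GATA, read as AGATAA or TGATAA, was found in 18.6%. The E-box, read as CAGCTG or CAGATG, was found in 30.6%. RUNX, read as TGTGGT or TGCGGT, was found in 22.4%. SOX, read as AACAAT or ACAATG (these can overlap), was found in 18.7%. NK2, read as TNAAGTG, was found in 11.5%. The Etv2 window held 1 match, an ETS match at -207 from the start site. The first Tal1 window held a GATA match at -205 and an E-box match at position 11 after the start site, and the second Tal1 window held none. A match describes these letters and is not evidence of binding.

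Array medians lay between 6.29 and 6.73 units, and the 3'/5' ratio of the beta-actin control probe sets ran from 1.32 to 1.55. Cardiac markers marked the reporter-positive cells: 13 of 14 were higher than in double-negative cells in red-only cells, 13 in green-only and 12 in double-positive cells. Of 10 pluripotency genes, 7, 6 and 6 were lower there in the same order, with 1, 0 and 2 higher. Of all genes tested, 10.9%, 9.33% and 13.9% were higher in that order, and 12.7%, 11.4% and 17.6% lower. Tnnt2 averaged 302 units in red-only, 852 in green-only, 1827 in double-positive and 21.6 in double-negative cells. Nkx2-5 averaged 166, 232, 415 and 35.5 units in the same order. Pou5f1 averaged 398 units in double-negative cells and 17.7 to 22.1 units elsewhere. Outside double-negative cells the pluripotency genes Nanog and Zfp42 averaged 3.82 to 4.47 and 4.02 to 4.63 units, below the array medians. Both passed the filter through their double-negative level and were among the genes tested in this list. Among the 12 arrays, green-only A was unlike its replicates B and C. Its deviation from the group mean had an SD of 0.19 on the log2 scale over all genes, against 0.10 to 0.15 on the other 11 arrays. On that array 11 endoderm markers summed to 1344 units, against 289 and 451 in green-only B and C, while 26 endothelial markers summed to 857 units, against 2248 and 2225. Each call of a single factor in green-only cells that changed without that array is given with and without it. Not every such change in the counts of the other gene lists is given. The part of these marker values in the results was not tested. The array was set apart after its values were seen. Its factor sum was low as well (176 units, against 318 and 309 in B and C). Larger green-only differences without it follow from that choice and are not separate support.

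Etv2 was highest in red-only cells. Its level was 69.0, 84.0 and 83.5 units in red-only cells (experiments A, B and C), 21.3, 31.5 and 34.8 in green-only, 19.2, 23.6 and 28.3 in double-positive and 17.3, 22.7 and 19.3 in double-negative cells. All 3 red-only arrays lay above all 9 others, and the other 3 populations overlapped. Red-only cells exceeded double-negative cells by 1.80 ± 0.16 (log2 difference ± SE, n = 3 arrays per population here and throughout; limma adjusted p = 6.38e-06), a 3.47-fold difference. They exceeded green-only cells by 1.33 ± 0.16 (limma adjusted p = 0.000658) and double-positive cells by 1.58 ± 0.16 (limma adjusted p = 3.50e-05). Double-positive cells differed from double-negative cells by 0.21 ± 0.16 (95% interval -0.13 to 0.56, limma adjusted p = 0.379). Green-only cells differed from double-negative cells by 0.46 (limma adjusted p = 0.0588), which passed with the experiment as a replicate block (adjusted p = 0.00348), without double-positive A (0.0486) and without green-only A (0.64, adjusted p = 0.00480).

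**Figure D1:**
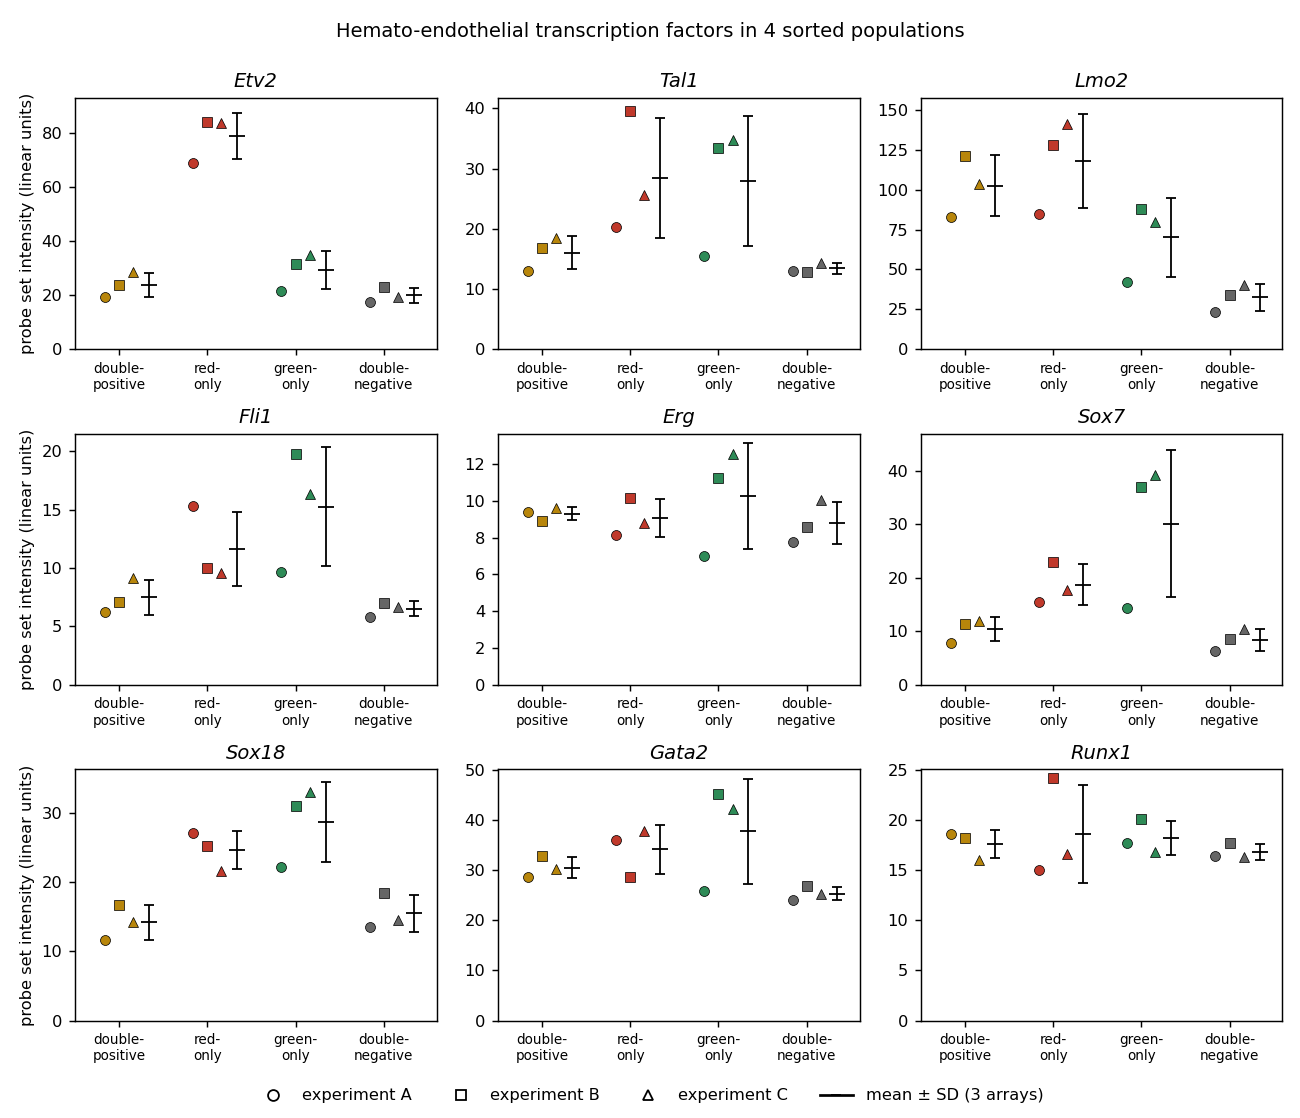
Intensity of each of the 9 genes (linear units, vertical axes from 0) on the 12 arrays, by population; points are single arrays and bars are the mean ± SD of 3 arrays. Etv2 is highest in the red-only arrays (69.0 to 84.0 units), Sox7 and Sox18 are high in red-only and green-only arrays, Lmo2 is high in all reporter-positive populations, and Erg and Runx1 have overlapping arrays everywhere.

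The Tal1 and Lmo2 genes encode partners in 1 complex, and their levels were not tested against each other. Against the double-negative reference, the double-positive difference of Tal1 was 0.20 (95% interval -0.34 to 0.73, limma adjusted p = 0.628). That of Lmo2 was 1.56 (95% interval 0.99 to 2.13). Tal1 was 20.3, 39.6 and 25.5 units in red-only cells and 15.5, 33.5 and 34.8 in green-only cells. In double-positive cells it was 12.9, 16.7 and 18.4 units, and in double-negative cells 12.9, 12.9 and 14.4. Both single-colour populations lay above all double-negative arrays, and green-only A was the lowest single-colour array. Tal1 exceeded double-negative cells by 0.86 ± 0.25 in red-only cells (limma adjusted p = 0.0227) and by 0.81 ± 0.25 in green-only cells (limma adjusted p = 0.0334), while red-only and green-only cells differed by 0.05 (95% interval -0.48 to 0.58). The red-only call was lost without double-negative A, red-only B or double-negative B (adjusted p = 0.0662, 0.103 and 0.0658). The green-only call was lost without double-negative A, B or C (0.0906, 0.0874 and 0.0649) or without green-only B or C (0.128 and 0.133), and also with no filter (0.0571), with an intensity trend and robust estimation (0.0532) and with only the 6 arrays compared (0.0521). Without green-only A the green-only difference was 1.13 (limma adjusted p = 0.000777). Double-positive cells were 0.66 below red-only cells (limma adjusted p = 0.110, with the replicate block 0.0211, without green-only A 0.0185). They were 0.61 below green-only cells (limma adjusted p = 0.193, with the replicate block 0.0459). Without green-only A that difference was -0.93 (limma adjusted p = 0.0133).

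Of the 9 factors, Lmo2 alone passed as higher in double-positive cells when these were set against double-negative cells. It was 82.9, 121 and 104 units in double-positive cells, 85.2, 129 and 142 in red-only cells, 42.2, 88.3 and 79.9 in green-only cells and 23.4, 33.9 and 40.03 in double-negative cells. Every reporter-positive array lay above every double-negative array, though green-only A cleared the highest of them narrowly. The difference from double-negative cells was 1.56 ± 0.26 in double-positive cells (limma adjusted p = 0.000521), 1.74 ± 0.26 in red-only cells (limma adjusted p = 0.000382) and 0.99 ± 0.26 in green-only cells (limma adjusted p = 0.0168). The green-only call was lost without double-negative A (adjusted p = 0.0800), green-only B (0.0771) or green-only C (0.0677), and the green-only difference was 1.30 without green-only A (0.000946). Double-positive and red-only cells differed by -0.18 (95% interval -0.75 to 0.39, limma adjusted p = 0.757). Double-positive cells exceeded green-only cells by 0.57 (limma adjusted p = 0.266, with the replicate block 0.00828), and red-only cells exceeded them by 0.75 (limma adjusted p = 0.177, with the replicate block 0.00219).

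Gata2, a GATA factor of blood progenitors and endothelium, moved little. It was 25.9, 45.3 and 42.1 units in green-only cells, 36.1, 28.7 and 37.9 in red-only, 28.6, 32.8 and 30.2 in double-positive and 24.1, 26.8 and 25.2 in double-negative cells. Green-only A fell inside the double-negative range while B and C lay above it. The green-only excess over double-negative cells was 0.47 ± 0.16 (limma adjusted p = 0.0486), and when 1 array was left out it was kept only without green-only A (0.70, limma adjusted p = 0.000441) or without red-only B: each of the other 10 arrays, left out, took the adjusted p to between 0.0564 and 0.192. The call was also lost with a pseudocount at the median (0.0518), quantile normalization (0.0752), no filter (0.0720), the mean of both probe sets (0.120) and only the 6 arrays compared (0.111). Red-only cells differed from double-negative cells by 0.37 (limma adjusted p = 0.113, without green-only A 0.0117), and double-positive from green-only cells by -0.24 (limma adjusted p = 0.483, and -0.47 with 0.0281 without green-only A). The other Gata2 probe set, 1428816_a_at, read 5.37 to 7.61 units on all arrays and differed from double-negative cells by 0.03 in green-only cells.

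Runx1 did not separate the populations. Its main probe set read 18.6, 18.2 and 15.97 units in double-positive, 15.03, 24.2 and 16.6 in red-only, 17.7, 20.1 and 16.8 in green-only and 16.4, 17.7 and 16.3 in double-negative cells. The largest difference from double-negative cells was 0.10 in red-only cells (95% interval -0.17 to 0.37, limma adjusted p = 0.643). Of its 5 other probe sets, 1427650_a_at and 1452530_a_at passed the filter, and neither passed the test in any comparison. The remaining 3 (1422865_at, 1440878_at and 1422864_at) stayed between 3.27 and 5.19 units.

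Fli1, the close relative of Erg, was dim, and was higher in both single-colour populations. It was 9.67, 19.7 and 16.3 units in green-only cells, 15.3, 10.03 and 9.58 in red-only, 6.26, 7.07 and 9.12 in double-positive and 5.78, 7.001 and 6.695 in double-negative cells. All single-colour arrays lay above all double-positive and double-negative arrays. Green-only cells exceeded double-negative cells by 0.83 ± 0.18 (limma adjusted p = 0.00550), and red-only cells by 0.55 ± 0.18 (limma adjusted p = 0.0429). Double-positive cells were 0.71 below green-only cells (log2 difference -0.71, limma adjusted p = 0.0397) and -0.43 from red-only cells (limma adjusted p = 0.162, without green-only A 0.0475). The red-only call was lost without red-only A (adjusted p = 0.178), red-only B (0.0581), double-negative A, B or C (0.129, 0.0767 and 0.0855), double-positive B (0.0558) or green-only C (0.0520). It was also lost with a pseudocount at the median (0.0543), no filter (0.0670), the mean of both probe sets (0.0687) and an intensity trend with robust estimation (0.0513). The double-positive against green-only call was lost without double-positive A or B (0.143 and 0.113), green-only B or C (0.114 and 0.112), double-negative A, B or C (0.0522, 0.0550 and 0.0575) or red-only B (0.0509). It was also lost with no filter (0.0659), the mean of both probe sets (0.0622), an intensity trend with robust estimation (0.0504) and only the 6 arrays compared (0.116). Without green-only A the green-only excess of Fli1 over double-negative cells was 1.06 (limma adjusted p = 0.000222). The other Fli1 probe set, 1433512_at, read 2.97 to 7.58 units and was below the filter.

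The 2 probe sets of Erg disagreed. The brighter set, 1425370_a_at, read 7.02 to 12.6 units over all arrays with every population overlapping, and its F-test over the 4 populations had a limma adjusted p of 0.832. The other, 1440244_at, read 10.1, 10.3 and 9.80 units in red-only cells and 7.08, 9.49 and 14.5 in green-only cells. It read 5.65, 7.12 and 7.66 units in double-positive and 6.12, 6.42 and 6.43 in double-negative cells. In a fit with every probe set on its own, it exceeded double-negative cells by 0.44 in both single-colour populations (limma adjusted p = 0.0416 for red-only and 0.0469 for green-only cells). Without green-only A the brighter set of Erg also passed for green-only against double-negative cells (0.31 higher, limma adjusted p = 0.0336).

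Sox7 and Sox18 were higher in both single-colour populations than in double-negative cells. Sox7 was 14.3, 36.9 and 39.1 units in green-only cells, 15.5, 22.9 and 17.6 in red-only, 7.77, 11.4 and 11.9 in double-positive and 6.23, 8.48 and 10.4 in double-negative cells. All single-colour arrays lay above the other 6, and green-only A was below all 3 red-only arrays. Sox7 exceeded double-negative cells by 1.37 ± 0.27 in green-only cells (limma adjusted p = 0.00270) and by 0.87 ± 0.27 in red-only cells (limma adjusted p = 0.0323). The red-only call was lost without double-negative A (adjusted p = 0.122), double-negative B (0.0744), red-only B (0.119) or red-only C (0.0677), and also with no filter (0.0556) and with an intensity trend and robust estimation (0.0621). Without green-only A the green-only difference of Sox7 was 1.77 (limma adjusted p = 9.27e-06). Double-positive cells differed from green-only cells by -1.16 ± 0.27 (limma adjusted p = 0.0240). That call was lost without double-positive A or B (0.101 and 0.0563) or green-only B or C (0.0743 and 0.0856), and also with an intensity trend and robust estimation (0.0540) and with only the 6 arrays compared (0.107). They differed from red-only cells by -0.66 (limma adjusted p = 0.147, with the replicate block 0.0184, without green-only A 0.00978). Red-only and green-only cells differed by -0.50 (limma adjusted p = 0.421), and by -0.90 without green-only A (limma adjusted p = 0.00914). The second Sox7 probe set, 1432495_at, read 4.98 to 7.07 units and passed the test in no comparison.

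Sox18 separated the single-colour populations from the other 2. It was 22.2, 31.0 and 33.0 units in green-only cells and 27.1, 25.3 and 21.7 in red-only cells, against 11.6, 16.7 and 14.3 in double-positive and 13.5, 18.5 and 14.5 in double-negative cells. The 6 single-colour arrays all lay above the other 6. Green-only cells exceeded double-negative cells by 0.74 ± 0.15 (limma adjusted p = 0.00281) and red-only cells by 0.56 ± 0.15 (limma adjusted p = 0.0131; without red-only A 0.0543, without double-negative A 0.0601). Double-positive cells differed from red-only cells by -0.66 (limma adjusted p = 0.00975) and from green-only cells by -0.84 (limma adjusted p = 0.00562). Double-positive and double-negative cells differed by -0.10 (95% interval -0.41 to 0.22).

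Counted over the 9 genes, red-only cells had 6 higher than double-negative cells and 0 lower, against 10.9% and 12.7% of the 13698 genes tested. The 6 were Etv2, Tal1, Lmo2, Fli1, Sox7 and Sox18. Green-only cells also had 6 higher and 0 lower, against 9.33% and 11.4%. These were Tal1, Lmo2, Fli1, Sox7, Sox18 and Gata2. The 2 comparisons share the double-negative arrays. Double-positive cells had 1 higher than double-negative cells (Lmo2) and 0 lower, against 13.9% and 17.6%. The median difference of the 9 genes was 0.56, 0.74 and 0.20 in these 3 comparisons, with the median of all genes at -0.02, -0.01 and -0.01. The red-only count was 2 without double-negative A and 3 without red-only B or double-negative B. The green-only count was 3 without double-negative A, green-only B or green-only C, and 8 without green-only A, where 9.59% of all genes were higher.

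Between reporter-positive populations, double-positive cells had 2 of the 9 lower than red-only cells (Etv2 and Sox18) and 0 higher, against 6.15% and 5.94% of all genes. They had 3 lower than green-only cells (Fli1, Sox7 and Sox18) and 0 higher, against 2.77% and 2.85%. Red-only cells had 1 higher than green-only cells (Etv2) and 0 lower, against 1.32% and 1.76%. With the experiment as a replicate block these counts of calls in either direction became 4, 5 and 2, when 16.7%, 9.36% and 5.76% of all genes were called. Without green-only A they became 5, 5 and 2, when 14.3%, 4.57% and 3.46% of all genes were called. The double-positive against green-only count fell to 1 without double-positive A, double-positive B, green-only B or green-only C. The F-test over the 4 populations passed for 6 of the 9 genes (Etv2, Tal1, Lmo2, Fli1, Sox7 and Sox18), against 32.3% of all genes.

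**Figure D2:**
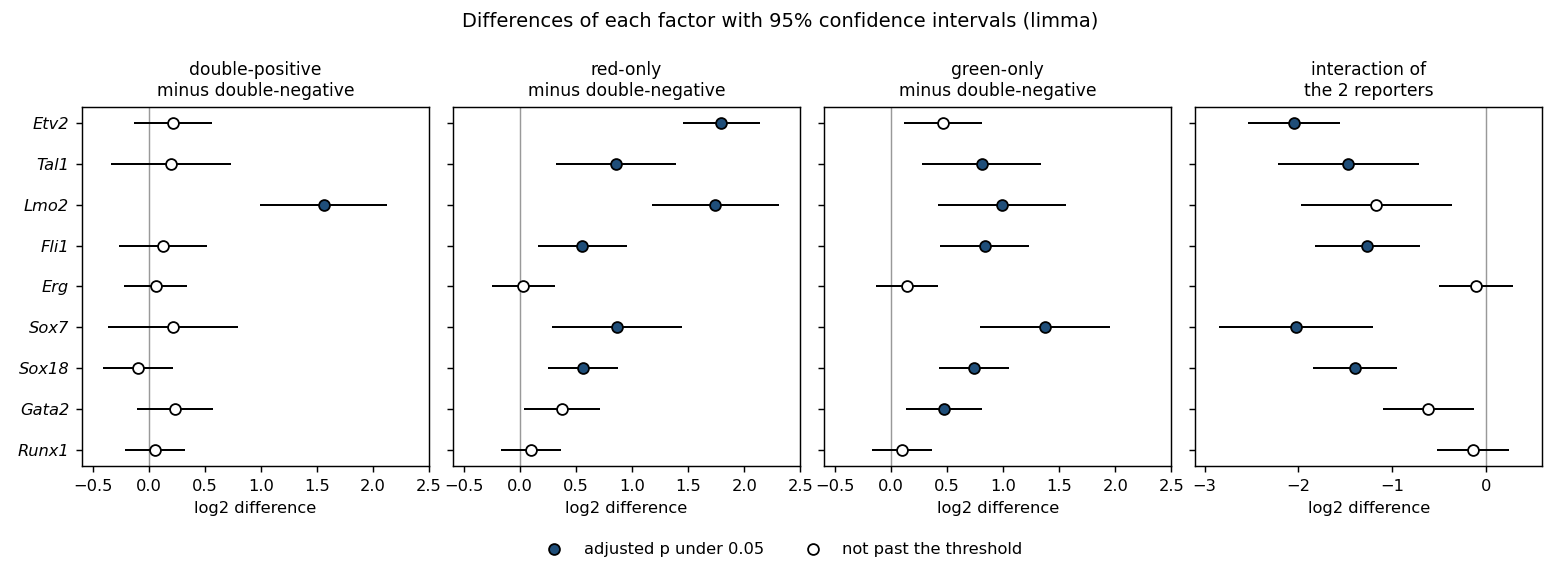
Log2 difference with its 95% interval for each of the 9 genes (horizontal axes, log2(intensity + 4.10) scale): double-positive, red-only and green-only minus double-negative cells, and the interaction. Etv2 is at 1.80 in red-only cells and 0.21 in double-positive cells, and the interaction of Etv2, Tal1, Fli1, Sox7 and Sox18 lies below 0.

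The interaction asks whether green makes the same difference in red cells as in cells without red, and is (R+G+ minus R+G-) minus (R-G+ minus R-G-). It passed for 5 of the 9 genes, all negative, against 10.5% of all genes in either direction. It was -2.05 ± 0.23 for Etv2 (limma adjusted p = 0.000187), -2.03 ± 0.38 for Sox7 (limma adjusted p = 0.00452), -1.47 ± 0.35 for Tal1 (limma adjusted p = 0.0175), -1.40 ± 0.21 for Sox18 (limma adjusted p = 0.00106) and -1.26 ± 0.26 for Fli1 (limma adjusted p = 0.00744). For these 5 genes the double-positive level was below what adding the separate red-only and green-only differences on the log2 scale would give. Lmo2 had -1.17 ± 0.37 (limma adjusted p = 0.0649), which passed with the replicate block (0.000549), without red-only A (0.0390) and without green-only A (0.00565). Gata2 had -0.61 (limma adjusted p = 0.103, and -0.84 with 0.00212 without green-only A). Erg and Runx1 had -0.11 and -0.14, and the second Erg probe set had -0.82 (limma adjusted p = 0.0227). Of 14 cardiac markers, 12 also had a negative interaction that passed (median -1.67).

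A list of 26 partner regulators, factors that bind with the 9 or act beside them in blood and vessels, gave 25 tested genes. In red-only cells 13 were higher and 1 lower than in double-negative cells (median 0.45), against 10.9% and 12.7% of all genes. Mecom, a zinc finger factor of blood stem cells and vessels, rose by 2.14 (limma adjusted p = 2.19e-06), from 12.4 ± 1.3 to 70.3 ± 19 units (SD). The forkhead genes Foxc2 and Foxc1, which act in mesoderm and vessels, rose by 1.996 and 1.60 (limma adjusted p = 0.000524 and 5.01e-06), and the ETS gene Ets1 rose by 1.76 (limma adjusted p = 0.000568). In green-only cells 8 were higher and 1 lower (median 0.18), against 9.33% and 11.4% of all genes. In these cells Ets1 was up by 1.47, and the homeobox genes Meis1 and Hhex by 1.16 and 1.05. Foxc1 differed by -0.21 there (limma adjusted p = 0.336). In double-positive cells 3 were higher and 4 lower (median -0.01), close to the 13.9% and 17.6% of all genes. With the replicate block 5 were higher, when 15.8% of all genes were. Without double-negative A 2 were lower. The lower gene in both single-colour populations was Myb, a factor of blood progenitors, at 28.4 ± 7.2 units in double-negative cells and 4.10 to 5.78 on average elsewhere. The levels elsewhere lay below the array medians of 6.29 to 6.73, and Myb passed the filter through its double-negative level. The lower count was 2 in red-only cells with the replicate block or without green-only A, and 2 in green-only cells without double-negative A. The interaction passed for 12 of the 25, 11 negative and 1 positive, against 10.5% of all genes in either direction. Without green-only A, 11 were higher in green-only cells and 15 had a negative interaction.

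**Figure D3:**
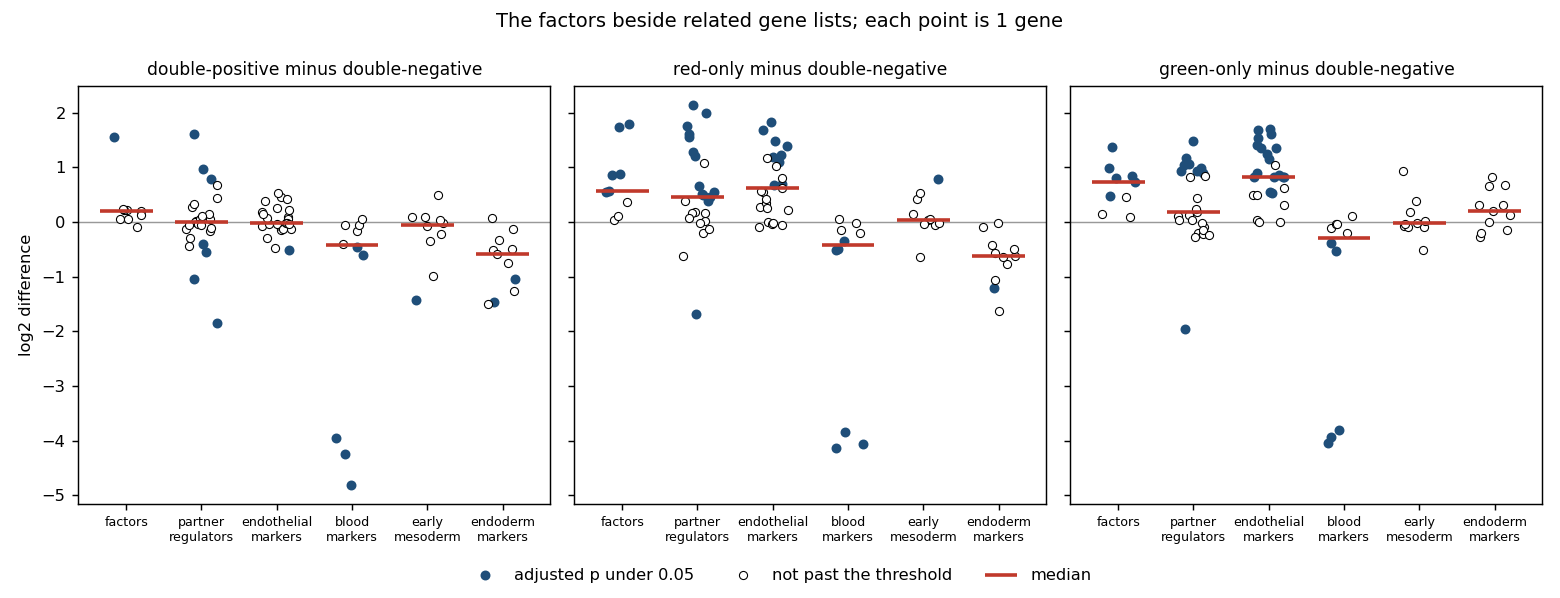
Log2 difference from double-negative cells of each tested gene in 6 gene lists (points), with the list median, in each of the other populations. The median of the endothelial markers is 0.62 for red-only cells, 0.82 for green-only cells and -0.03 for double-positive cells.

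Some endothelial markers were higher in each single-colour population. Of 25 tested, 9 passed as higher than in double-negative cells in the red-only population and 17 in the green-only population, with 0 lower in either. Of all genes, 10.9% and 9.33% were higher there, and 12.7% and 11.4% lower. Kdr, the VEGF receptor of blood and endothelial precursors, was higher by 1.83 in red-only (limma adjusted p = 0.00216) and 1.70 in green-only cells (limma adjusted p = 0.00390). The angiopoietin receptor Tek was higher by 1.67 and 1.68 (limma adjusted p = 0.00398 and 0.00440). Cdh5, the endothelial junction cadherin, was higher by 1.60 in green-only cells (limma adjusted p = 0.0114) and differed by 1.16 in red-only cells (limma adjusted p = 0.0504). Pecam1, a defining endothelial surface protein, did not pass in either (0.26 and 0.50, limma adjusted p = 0.401 and 0.0938). In double-positive cells 0 were higher and 1 lower than in double-negative cells, against 13.9% and 17.6% of all genes. The lower count was 0 without double-positive A, double-positive B or double-negative C, and 3 without green-only A. Double-positive cells had 6 lower than red-only and 8 lower than green-only cells, against 6.15% and 2.77% of all genes. These counts were 14 and 20 with the replicate block (8.87% and 4.96%) and 18 and 21 without green-only A (7.70% and 2.58%). The first was 2 without double-positive A, red-only B or red-only C and 3 without double-positive B. The second was 2 without double-positive A, 3 without green-only C, 4 without double-positive B or green-only B and 5 without double-positive C. The interaction passed for 18, all lower (11 without double-negative A), against 10.5% of all genes in either direction. The red-only count was 14 with the replicate block and 15 without green-only A, and the green-only count was 7 without double-negative A, green-only B or green-only C, 11 without double-negative B and 22 without green-only A. The interaction count was 22 without green-only A. Red-only cells had 2 lower and 0 higher than green-only cells, against 1.76% and 1.32% of all genes. Without green-only A, 10 were lower and 0 higher, against 1.90% and 1.56% of all genes.

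**Figure D4:**
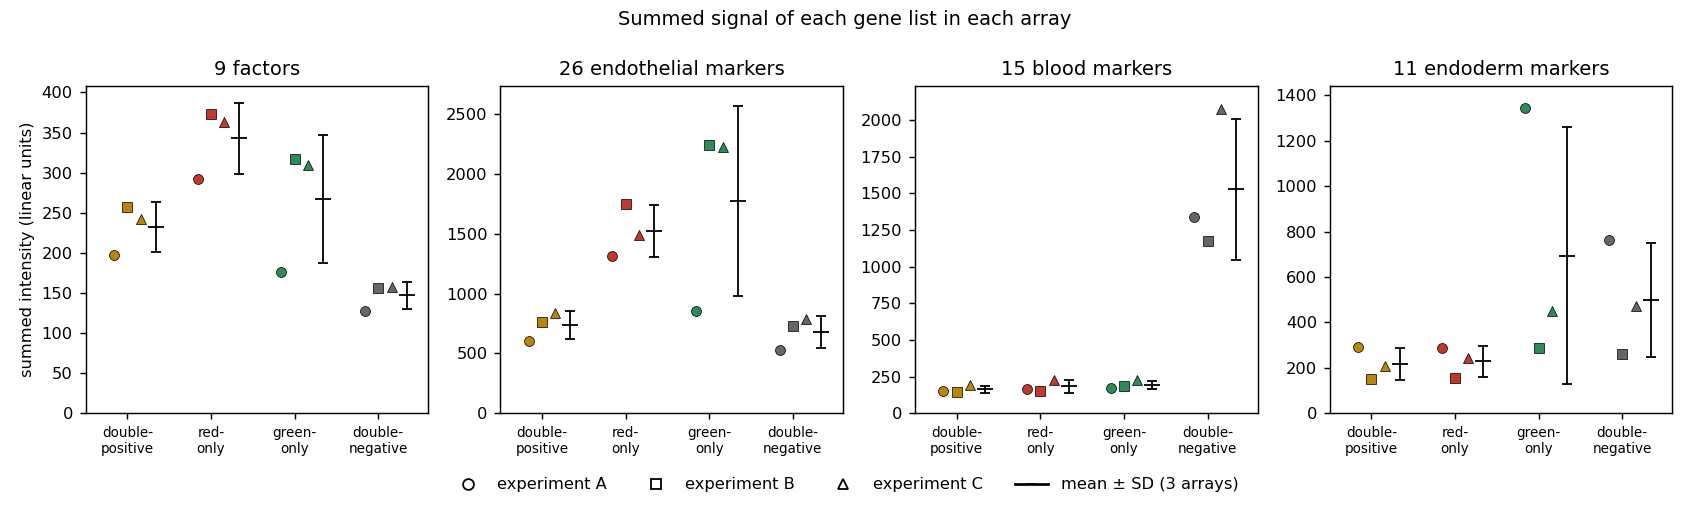
Summed intensity (linear units) per array of the 9 factors, 26 endothelial markers, 15 blood markers and 11 endoderm markers, by population. Factors and endothelial markers are lower in green-only A (176 and 857 units) than in green-only B and C, where endoderm markers are lower (289 and 451, against 1344 units). The brightest genes weigh most in each sum.

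The summed level of the 9 factors was 292, 373 and 363 units in red-only cells, 176, 318 and 309 in green-only, 197, 257 and 242 in double-positive and 127, 157 and 157 in double-negative cells. Linear sums weigh bright genes most, and Lmo2 weighs most in this one. Lmo2 alone averaged 118 units in red-only, 70.1 in green-only, 103 in double-positive and 32.4 in double-negative cells. The endothelial sum ran from 1318 to 1753 units in red-only, 857 to 2248 in green-only, 608 to 837 in double-positive and 527 to 789 in double-negative cells. The endoderm sum ran from 259 to 761 units in double-negative cells and from 151 to 290 in double-positive and red-only cells. Of 11 endoderm markers, 0 differed between green-only and double-negative cells and 1 was lower in red-only cells and 2 in double-positive cells, against the same reference. Neural markers (6 tested) had 3 lower in double-positive and in red-only cells and 2 in green-only cells. Early mesoderm markers (10 tested) had 1 lower in double-positive cells, 1 higher in red-only cells and 0 in green-only cells. Of all genes, 10.9%, 9.33% and 13.9% were higher in red-only, green-only and double-positive cells, and 12.7%, 11.4% and 17.6% lower. The endoderm and early mesoderm counts were too small to set apart from these shares.

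Blood markers had another distribution from the factors. Of 10 tested, 6 were lower in red-only cells and 5 each in green-only and double-positive cells, against double-negative cells, and 0 were higher. Of all genes, 12.7%, 11.4% and 17.6% were lower in that order, and 10.9%, 9.33% and 13.9% higher. The blood marker sum was 1175 to 2077 units in double-negative cells and 145 to 229 units elsewhere. In double-negative cells the globins Hbb-bh1, Hba-x and Hbb-y carried most of this sum, with Hba-x at 446 ± 162 units (SD). The embryonic globin Hbb-bh1 was 793 ± 310 units (SD) in double-negative cells and 26.6 to 45.2 units on average in the other 3 populations. The globin Hbb-y was 160 ± 46 units (SD) in double-negative cells and 4.29 to 6.39 units on average elsewhere. Gata1, the master regulator of red cells, had mean levels of 5.78 to 7.01 units, below or near the array medians, and did not pass (limma adjusted p = 0.212, 0.346 and 0.131 for red-only, green-only and double-positive against double-negative cells). The double-negative cells had the highest means of Hbb-bh1 and Hbb-y. Of the 9 factors, 6 passed as higher in red-only cells and 6 in green-only cells than in double-negative cells, against 10.9% and 9.33% of all genes. In double-positive cells 1 passed as higher, against 13.9%. The red-only and green-only counts changed when 1 array was left out. Blood and endothelial cells were not sorted, and the part of each in these levels was not tested.

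The genes whose level over the 12 arrays was most like that of a factor were taken from all genes tested, as the 3 highest Pearson correlations for each of the 6 factors that passed the F-test. For Etv2 they were the lymphatic growth factor Vegfc (r = 0.962), Zeb2 (0.962) and Twist1 (0.958), the latter pair being mesenchymal transcription factors. Zeb2 averaged 8.08 units in red-only cells and 4.28 to 5.30 elsewhere, below the array medians of 6.29 to 6.73. It passed the filter through its red-only level. For Sox7 they were Cdh5 (0.978), Esam (0.977) and Plvap (0.973), all endothelial markers. For Sox18 they were Eng (0.945), Gpr182 (0.934) and Dusp2 (0.930), and for Fli1 they were Ctla2a (0.944), Eng (0.933) and Calcrl (0.928). Tal1 had Ripk3 (0.977), Ptpre (0.955) and Plvap (0.950), and Lmo2 had Saraf (0.973), Ripor1 (0.973) and Dok4 (0.964). The endothelial list held 7 of these 18 places, among them none for Etv2 or Lmo2. The arrays share populations and experiments, so these values only describe likeness of pattern.

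The factors also moved together between arrays of the same population. After the population mean was taken out, the log2 deviations of 8 of the factors correlated at 0.38 to 0.93 in 28 pairs, with the closest pair being Erg and Sox7. The 8 pairs with Runx1 had correlations of -0.23 to 0.49. Experiment A gave the lowest level in 4 of 4 populations for Etv2, Lmo2 and Sox7, in 3 of 4 for Tal1, Fli1, Erg, Sox18 and Gata2, and in 1 of 4 for Runx1. Marker sums moved with experiment A as well: the endothelial, partner and early mesoderm sums were lowest in A in 4 of 4 populations, and the endoderm and neural sums were highest in A in 4 of 4. The endoderm sum in experiment A was 290 units in double-positive, 288 in red-only, 761 in double-negative and 1344 in green-only cells. The part of these markers in the factors' shift was not tested. The 12 points share 3 experiments and 4 population means, and no p is given. Neither the order of experiments nor the pair correlations were computed over all genes, and the split by Runx1 was not set in advance. Over all genes, same-letter arrays also deviated together (mean r 0.264 in 18 pairs). These patterns are therefore not read as particular to the factors.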

How the data were processed

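Intensity values, linear and 1 per probe set and array, were deposited by the authors; per the submitters' processing notes MAS5 was used, with no version or scaling target given in the sources used here. Per the labels' protocols, 5 ug of total RNA was labelled per array. Groups came from the sample titles, since the sort description repeats 1 population's name. Of 45101 probe sets, 34945 named 1 gene, 932 named several and 9160 none; 64 controls were left out. Each of 18193 genes was taken by its brightest probe set, as log2(intensity + 4.10), the 25th percentile of all values. Genes under the 40th percentile (3.22) were left out, leaving 13698.

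limma 3.58.1 (R 4.3.3) was fitted to all 12 arrays, 1 mean per population, 8 residual degrees of freedom, two-sided except for the F-test, with Benjamini-Hochberg adjustment over all genes, threshold 0.05 and no minimum fold. With 3 arrays per population, their number limits the precision. The procedure was tested on simulated data with independent noise on each array and differences added in red-only arrays. That test did not cover arrays that deviate together or an array with a wider spread. Figures used matplotlib 3.10.9 in Python 3.11.15.

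Same-letter arrays deviated together from their population means (r 0.116 to 0.424 in 18 pairs, and -0.131 on average between letters). The main fit held no term for the experiment letter, so its p-values and counts ignore this pairing. The letter as a replicate block was an alternative, and is given where it changes a call. Other alternatives were pseudocounts of 1 and 6.52, quantile normalization, no filter or the 60th percentile, other probe sets or their mean, an intensity trend with robust estimation, only the 6 arrays compared, and each array left out. Counts of listed genes under the block and without each array, and the NK2 motif, were added after seeing the data. The choice to set green-only A apart from the other arrays was also made after seeing them.

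The members and lists (partner regulators, endothelial, blood, cardiac, early mesoderm, pluripotency, endoderm and neural markers) were chosen with earlier results of these data known. All 9 members were named, with up to 4 genes of a list by size of change, and defining markers of a list whatever their value. Erg, Sox7, Gata2 and Runx1 probe sets beyond the brightest were tested in a fit of all probe sets. Other sets below the filter were not tested.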

Additional observations from a re-analysis of the deposited data

Results flagged for a closer look

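For 5 of the 9 factors the difference made by green was unlike in red and in non-red cells, by the test of that difference itself, the interaction over 12 arrays. It was -2.05 ± 0.23 (log2, SE) for Etv2 (limma adjusted p = 0.000187), -1.47 ± 0.35 for Tal1 (0.0175), -1.26 ± 0.26 for Fli1 (0.00744), -2.03 ± 0.38 for Sox7 (0.00452) and -1.40 ± 0.21 for Sox18 (0.00106). Over all genes tested, 10.5% passed in either direction, and the median interaction was 0.03 against -1.26 over the 9 factors. A negative interaction was not particular to the factors. It passed for 12 of 14 cardiac markers (median -1.67) and 18 of 25 endothelial markers (median -1.55). In the pluripotency list 7 of 10 passed as positive (median 2.64). That list holds Nanog and Zfp42, which passed the filter through their double-negative level.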

How the results depend on the processing

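Of the 24 comparisons of a single factor past the threshold, 13 kept their call under every alternative run for them, and none of the 24 changed sign. The interaction was called for 5 to 7 factors and the F-test for 5 to 7 when 1 array was left out. Leaving out 1 array gave 1 called factor in double-positive, 2 to 7 in red-only and 3 to 8 in green-only against double-negative cells. It gave 2 to 5 in double-positive against red-only, 1 to 5 in double-positive against green-only and 1 to 2 in red-only against green-only cells. With the replicate block these last 3 counts were 4, 5 and 2 while the share of all genes called was 16.7%, 9.36% and 5.76%, and the block lost no call of a single factor. Double-positive against green-only fell from 3 to 1 with an intensity trend and robust estimation, and with only the 6 arrays compared.

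Signs turned in 4 checks, none of a called difference: Erg in red-only minus double-negative cells (-0.031 without double-negative A and -0.033 without red-only B, from 0.028, with a range up to 0.096 over the arrays left out), the Erg interaction (0.0095 without green-only C, from -0.11, with a range down to -0.28) and Sox7 in double-positive minus red-only cells (0.029 on probe set 1432495_at, from -0.66). The cause was not tested. The other checks of these 39 comparisons were 724 with the same call, 71 weaker and 25 stronger. Of the 24 comparisons past the threshold under no setting, 36 of 525 checks changed sign, with values up to 0.38. The brighter Erg probe set and Fli1 in double-positive and double-negative cells read 5.78 to 12.6 units, near the array medians of 6.29 to 6.73, and at such levels the pseudocount shrinks differences.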

Other observations

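Sox17, the third SOXF gene and also an endoderm gene, had another pattern from Sox7 and Sox18. It was 93.6, 38.6 and 49.6 units in green-only cells (experiments A, B and C), so that green-only A, lowest for Sox7 at 14.3 units, was highest for Sox17. It was 40.4, 20.3 and 33.2 units in double-negative cells, 22.3, 12.5 and 21.3 in red-only and 11.02, 13.03 and 13.9 in double-positive cells. Double-positive cells were below double-negative cells by 1.04 on the log2 scale (log2 difference -1.04, limma adjusted p = 0.0128), and the red-only and green-only differences of -0.62 and 0.82 did not pass (limma adjusted p = 0.143 and 0.0571). The endoderm genes Ttr and Afp read 417, 55.9 and 132.6 and 69.4, 10.5 and 11.98 units in green-only A, B and C. Double-negative A was also above B and C, at 170.6, 39.7 and 106.7 units for Ttr and 45.8, 8.02 and 11.05 units for Afp, and the endoderm sum was highest in experiment A in all 4 populations.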
